A study of Mus musculus with 768 samples.

Results

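Utf1, Tdgf1, Fgf4 and L1td1 are 4 genes of the pluripotent state that were followed in single mouse cells while embryonic stem cells were turned towards motor neurons. They are the rows UTF1, TDGF1, FGF4 and L1TD1 of a table of 27723 genes and were chosen by their lower level at 12 h than at 0 h of induction. Values in that contrast are therefore a description of how they were picked. The cells carried the Ainv15(iNgn2.Isl1.Lhx3.V5) line's cassette, in which doxycycline switches on the 3 transcription factors Neurog2 (Ngn2), Isl1 and Lhx3. The sources used here do not give the number of clones behind the line. The embryonic stem cells were grown with leukemia inhibitory factor, a MEK inhibitor and the GSK3 inhibitor CHIR. They were then left to aggregate into embryoid bodies for 2 days in a medium for which the labels list none of these. Doxycycline was added at 3 µg/ml, and viable cells labelled with fluorescein diacetate were sorted into wells at 0 h (no doxycycline) and 6, 12, 18, 24, 30, 36 and 48 h. There were 96 cells per time point and 768 in all, each sequenced from full-length SMART-Seq2 cDNA. As no separate cultures of a time point are labelled, a time point counts as 1 sample, no difference was tested, and every SD below is between cells of 1 sample.

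Utf1 encodes a chromatin-bound factor of undifferentiated cells that limits loading of the Polycomb repressor PRC2 at developmental genes and recruits the decapping factor Dcp1a to their transcripts. Tdgf1 encodes Cripto, a membrane-anchored co-receptor through which the growth factor Nodal reaches its activin-type receptors and Smad2. Fgf4 is the secreted growth factor by which mouse embryonic stem cells activate their own FGF receptors and the ERK kinases, a signal that readies them to leave the naive state. L1td1 is an RNA-binding protein derived from a LINE-1 retrotransposon and a partner of the RNA regulator Lin28. All 4 are textbook markers of pluripotent cells, and Utf1 and Fgf4 are classic targets of the Pou5f1 and Sox2 pair.

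The 4 genes lie on 3 chromosomes of the mouse genome (RefSeq, GRCm38.p6, which is mm10). L1td1 spans chr4:98726754-98738486 on the plus strand, with 5 exons in its longest coding transcript. Utf1 spans chr7:139943856-139945112 on the plus strand and is a small gene of 2 exons, and Fgf4 spans chr7:144861386-144865245 on the plus strand with 3 exons, 4.92 Mb from Utf1. Tdgf1 spans chr9:110939608-110946158 on the minus strand with 6 exons. No annotated gene overlaps them. Tdgf1 has the annotated pseudogenes Tdgf1-ps1 and Tdgf1-ps2, and the sources used here do not say how reads shared with them were counted, so its level is uncertain to that extent. The longest coding transcript of Utf1 has a GC content of 63.5%, above that of 98.9% of 21877 coding genes (GENCODE M21), against 50.8% for Fgf4, 47.8% for L1td1 and 45.3% for Tdgf1.

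The 250 bases before the start site of each gene are shown, read 5′ to 3′ along the gene's strand, with matches to the motifs searched in capitals. That the 4 genes were lower together at 12 h is how they were chosen, so it gives no ground for a shared control. They are the windows chr7:139943606-139943855 (Utf1), chr9:110946159-110946408 (Tdgf1), chr7:144861136-144861385 (Fgf4) and chr4:98726504-98726753 (L1td1), from RefSeq.
Utf1: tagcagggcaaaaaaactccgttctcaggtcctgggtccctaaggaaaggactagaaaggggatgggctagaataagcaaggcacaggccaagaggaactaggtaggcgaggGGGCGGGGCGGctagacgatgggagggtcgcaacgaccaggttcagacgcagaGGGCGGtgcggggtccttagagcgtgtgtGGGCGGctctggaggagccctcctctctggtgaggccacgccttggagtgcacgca
Tdgf1: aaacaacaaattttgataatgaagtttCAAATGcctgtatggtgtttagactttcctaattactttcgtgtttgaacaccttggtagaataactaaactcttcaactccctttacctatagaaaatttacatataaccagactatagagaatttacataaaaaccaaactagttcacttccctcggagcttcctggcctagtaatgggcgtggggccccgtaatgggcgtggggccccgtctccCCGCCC
Fgf4: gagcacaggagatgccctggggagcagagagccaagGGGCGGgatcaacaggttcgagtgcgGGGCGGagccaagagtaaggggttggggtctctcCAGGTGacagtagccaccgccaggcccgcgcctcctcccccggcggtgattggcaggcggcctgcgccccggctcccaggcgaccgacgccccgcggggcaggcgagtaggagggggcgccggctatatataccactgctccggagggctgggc
L1td1: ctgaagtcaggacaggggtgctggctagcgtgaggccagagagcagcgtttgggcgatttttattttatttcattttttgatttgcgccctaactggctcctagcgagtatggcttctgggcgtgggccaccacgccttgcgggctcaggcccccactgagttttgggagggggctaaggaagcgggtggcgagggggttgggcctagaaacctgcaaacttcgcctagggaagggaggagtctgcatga
Both strands were searched for the octamer ATTTGCAT bound by POU factors, the Sox core CATTGT, the E-box CANNTG bound by Neurog2 and other basic helix-loop-helix proteins, TATAAA, and the GC box GGGCGG bound by Sp1. The Utf1 window held 4 GC boxes, of which 2 share 1 base, Fgf4 held 2 and an E-box, and Tdgf1 held 1, as CCGCCC on the opposite strand, and an E-box. L1td1 held no match to any of the 5 motifs, and no window held the octamer, the Sox core or TATAAA. Of 32851 promoters of the same length, 32.7% held a GC box, 66.2% an E-box, 12.4% TATAAA, 10.7% the Sox core and 1.60% the octamer. The 4 windows thus shared no motif of those searched. Their GC content was 71.2% in Fgf4, 61.6% in Utf1, 57.6% in L1td1 and 42.0% in Tdgf1, against a median of 52.4% over all promoters. The known Pou5f1 and Sox2 enhancers of Utf1 and Fgf4 lie downstream of the genes' start sites, outside these windows.

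Values are in TPM, a transcript's share of its cell's total after division by transcript length. Comparing levels between genes has a limit, since which of 2 genes is higher can depend on the sample. Mean Actb and Gapdh were 18939 and 2510 TPM at 0 h but 3928 and 11474 TPM at 6 h. Only cells with at least 2000 genes above 0 were used, 368 of 768, namely 37, 52, 44 and 14 cells at 0, 12, 36 and 48 h and 53, 56, 55 and 57 cells at 6, 18, 24 and 30 h. By Sod1 level the time points form 2 sets, here called library sets, that do not follow time. The labels do not say which cells were in which library batch. Mean Sod1, a superoxide dismutase gene, lay between 19553 and 65262 TPM in one set (0, 12, 36 and 48 h, called Sod1-high) and between 518 and 807 TPM in the other (6, 18, 24 and 30 h, called Sod1-low). Levels were compared only within a set, since a change between 0 and 6 h cannot be told apart from the change of set. The kept Sod1-high cells had median gene numbers of 5304, 4269, 2894 and 2141 in order of time, and the Sod1-low cells had 6481 to 7484. A listed 0 is often a missed transcript: Hprt, which cells in general use, was above 0 in 7.14 to 20.5% of cells in the Sod1-high set and 59.6 to 67.9% in the other, while Actb was above 0 in all kept cells. The induced factor Lhx3 averaged 0.12 TPM before doxycycline and 140 TPM after 12 h. Of markers of other lineages, summed over each list, trophoblast markers had 1.23 to 27.6 TPM, with Cdx2 at 0 at every time point. Elf5 of that list was detected in 75.7% of 0 h cells and 63.5% of 12 h cells, averaging 3.72 and 4.61 TPM. Mesoderm and endoderm markers summed to 1.61 to 190 TPM. Mesp1 and Sox17 were among those at 0 at 12 h, when nearly the whole sum came from Mixl1. Its mean rose from 7.91 TPM before doxycycline to 46.8 TPM, carried by 17.3% of the 12 h cells. The mesoderm factor T made up most of the highest sum, that of 36 h, averaging 160 TPM with 18.2% of cells above 0. Fibroblast markers summed to 57.3 TPM before doxycycline and 249 TPM after 12 h, nearly all Col1a2, with S100a4 at 0 throughout. Their part in the results was not tested.

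Before doxycycline Utf1 had the highest mean TPM of the 4 and was the only one found in every kept cell. Its lowest, median and highest 0 h cells had 202, 1993 and 5717 TPM. Those of 12 h had 0, 267 and 4938 TPM, those of 36 h 0, 0 and 172, and those of 48 h 0, 0 and 80.5. The 0 h and 12 h cells overlapped widely, as 27 of 52 cells at 12 h were at or above the lowest 0 h cell, but only 2 reached the 0 h median. The mean and SD over the 37, 52, 44 and 14 cells were 2434 ± 1414, 568 ± 887, 4.65 ± 26.3 and 9.07 ± 24.0 TPM in order of time. Utf1 was above 0 in 37 of 37 cells at 0 h (100%, exact Clopper-Pearson 95% interval 90.5 to 100%), in 34 of 52 at 12 h (65.4%, 50.9 to 78.0%), in 2 of 44 at 36 h (4.55%, 0.56 to 15.5%) and in 2 of 14 at 48 h (14.3%, 1.78 to 42.8%). Such intervals cover counting error only. Utf1 was thus carried at 12 h by cells with a high level, a median of 733 TPM among those above 0, beside 18 cells without it, and the order from 36 to 48 h was within the counting error. One cell held 84.2% of the summed level at 36 h, and without it the mean was 0.75 TPM.

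Tdgf1, the Nodal co-receptor, was patchier from the outset. Its lowest, median and highest cells had 0, 20.4 and 1018 TPM at 0 h, 0, 0 and 73.7 at 12 h, and 0, 0 and 76.5 at 36 h, and the 48 h cells were all listed at 0. Counting error over 14 cells allows up to 21.4% of such cells to be listed above 0. That limit does not cover cells whose transcript was missed, as even Hprt was listed in 7.14% of cells then. Its mean of 107 ± 202 TPM at 0 h compared with 3.57 ± 13.7 TPM at 12 h. The transcript was detected in 22 of 37 cells at 0 h (59.5%, 42.1 to 75.2%), in 5 of 52 at 12 h (9.62%, 3.20 to 21.0%) and in 3 of 44 at 36 h (6.82%, 1.43 to 18.7%). The 0 h interval lies above the 12 h one, in the contrast that chose the gene, and those at 12 and 36 h overlap. Among cells above 0 the median was also lower at 12 h, 39.7 TPM against 113 TPM.

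By fold of means Fgf4 had the largest contrast of the 4 between 0 h and 12 h, and by fold of medians the smallest (log2 -2.00, against -2.90 for Utf1, -4.42 for Tdgf1 and -5.55 for L1td1). Its lowest, median and highest cells had 0, 2.99 and 1146 TPM at 0 h and 0, 0 and 57.1 TPM at 12 h. The mean was 99.4 ± 199 TPM at 0 h, where 21 of 37 cells were above 0 (56.8%, 39.5 to 72.9%), and 1.56 ± 8.21 TPM at 12 h, where 3 of 52 were (5.77%, 1.21 to 15.9%). One of these 3 cells held 70.5% of the summed 12 h level. The 44 cells of 36 h and the 14 of 48 h were all listed at 0, with limits from counting error of 6.82% and 21.4% of cells listed above 0, missed transcripts not covered.

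L1td1 was detected in 29 of 37 cells at 0 h (78.4%, 61.8 to 90.2%), in 10 of 52 at 12 h (19.2%, 9.63 to 32.5%) and in 3 of 44 at 36 h (6.82%, 1.43 to 18.7%). The 14 cells of 48 h were all listed at 0, with the same 21.4% limit from counting error as for Tdgf1. Its lowest, median and highest cells were at 0, 45.8 and 711 TPM before doxycycline, 0, 0 and 207 TPM after 12 h, and 0, 0 and 18.8 TPM after 36 h. Mean levels were 93.5 ± 155 TPM before doxycycline and 14.8 ± 44.9 TPM at 12 h. In the cells above 0, 29 and then 10, L1td1 had a median of 56.2 TPM before doxycycline and 59.8 TPM at 12 h, and a mean of 119 and 77.0 TPM. The median of these cells was thus no lower at 12 h, while their mean was.

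**Figure D1:**
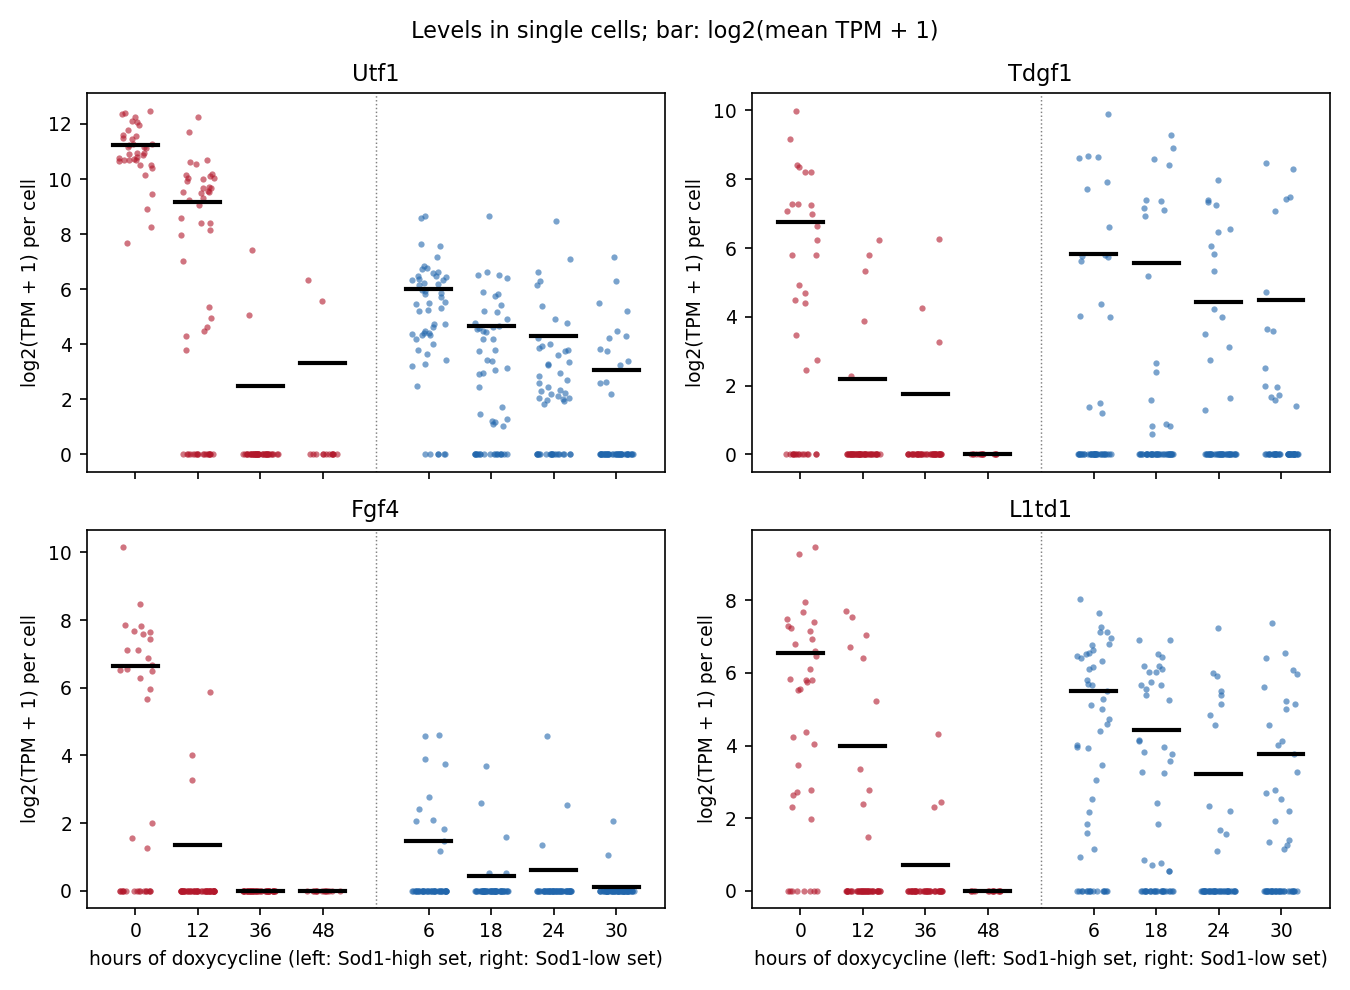
Level of each gene in every kept cell, as log2(TPM + 1) on the vertical axis, by hours of doxycycline, with the Sod1-high set (0, 12, 36, 48 h) on the left of each panel and the Sod1-low set (6, 18, 24, 30 h) on the right; points are cells and bars are log2(mean TPM + 1). Utf1 has 0 cells at 0 TPM at 0 h and a group of high cells beside a group at 0 TPM at 12 h, while Fgf4 is nearly all at 0 TPM from 12 h on and low throughout the Sod1-low set.

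As a fold of means with 1 TPM added, which makes differences of low genes look smaller than they are, 12 h was lower than 0 h by 39.3-fold for Fgf4 (log2 -5.30), 23.7-fold for Tdgf1 (-4.56), 5.98-fold for L1td1 (-2.58) and 4.28-fold for Utf1 (-2.10). To enter a comparison, a gene had to average 10 TPM or more at the higher of both times and to be above 0 in 25% or more of the cells there. A gene under 10 TPM at 1 of both times could thus enter only by being higher at the other. This holds for all lists below. Among 5848 genes that entered, Fgf4 had the lowest value of all, Tdgf1 ranked 5th, L1td1 89th and Utf1 174th from the bottom. All 4 were at least 2-fold lower, as were 13.0% of the genes compared, and nothing is read from this count because the contrast chose the genes. Without the limit on genes per cell, Utf1 had a log2 fold change of -1.002, and as a mean of log2 values over cells it had -5.24, the largest of the 4, so the order of the genes depends on how cells are averaged. The 36 and 48 h time points share the 0 h cells with it. At 36 h against 0 h the log2 fold change was -8.75 for Utf1, -5.87 for L1td1 and -5.01 for Tdgf1, all 4 were at least 2-fold lower or listed at 0, and 28.5% of 5255 genes were at least 2-fold lower. In all cells Tdgf1 had -1.56 and L1td1 -0.87 at 36 h. At 48 h against 0 h, where 43.4% of 5099 genes were at least 2-fold lower, Utf1 had -7.92 and the other 3 were listed at 0. Between 12 and 36 h Utf1 had a further log2 fold change of -6.65, whereas the other 3 did not enter: Tdgf1 and Fgf4 averaged below 10 TPM at 12 h, and L1td1, with 14.8 TPM, was above 0 in 19.2% of cells, under the 25% needed.

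Depth fell along the Sod1-high set, so cells above a higher floor of genes were also set side by side. In cells with at least 4000 genes, 31 at 0 h and 33 at 12 h, Utf1 was above 0 in 100% and 72.7%, L1td1 in 80.6% and 21.2%, Fgf4 in 64.5% and 9.09% and Tdgf1 in 54.8% and 9.09%, a comparison added after the data had been seen. Depth still differed among these, with a median of 5389 and a highest of 7044 genes at 0 h against 4566 and 5205 at 12 h. Within 4000 to 5000 genes, also added later, 8 cells at 0 h (median 4762 genes) and 27 at 12 h (4467 genes) remained. There Utf1 was detected in 100% and 70.4%, L1td1 in 75.0% and 14.8%, Fgf4 in 50.0% and 7.41% and Tdgf1 in 37.5% and 3.70%. No cell at 36 or 48 h reached 4000 genes. Of the 6 cells with 2000 to 4000 genes at 0 h, 100% had Utf1, 83.3% Tdgf1, 66.7% L1td1 and 16.7% Fgf4, against 4.55, 6.82, 6.82 and 0% of the 44 cells at 36 h. For Fgf4 these few shallow cells do not separate the time points.

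The Sod1-low set was not used to choose the genes and gives a separate view of them between 6 and 30 h. Utf1 had a lowest, median and highest cell of 0, 42.9 and 399 TPM at 6 h, 0, 6.66 and 403 at 18 h, 0, 3.40 and 360 at 24 h, and 0, 0 and 142 at 30 h. The median cell was thus lower at each later time, while the highest cell was of like level up to 24 h. The means over 53, 56, 55 and 57 cells were 63.7 ± 80.4, 24.2 ± 57.5, 18.6 ± 53.4 and 7.29 ± 22.4 TPM. Single cells weighed on these means: the highest held 29.7% of the summed level at 18 h, 35.1% at 24 h and 34.3% at 30 h, and without it the means were 17.3, 12.3 and 4.87 TPM. The share above 0 was 88.7% (77.0 to 95.7%), 66.1% (52.2 to 78.2%), 61.8% (47.7 to 74.6%) and 24.6% (14.1 to 37.8%) in the same order, with neighbouring intervals apart only between 24 and 30 h.

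L1td1 also was lower after 6 h, but not steadily. Its lowest, median and highest cells had 0, 15.1 and 261 TPM at 6 h, 0, 0.55 and 119 at 18 h, 0, 0 and 150 at 24 h, and 0, 0 and 166 at 30 h. The means were 44.5 ± 58.6, 20.5 ± 32.6, 8.27 ± 24.5 and 12.7 ± 29.7 TPM, and the shares above 0 were 69.8% (55.7 to 81.7%), 53.6% (39.7 to 67.0%), 23.6% (13.2 to 37.0%) and 40.4% (27.6 to 54.2%). The 24 h share was the lowest of the 4, below that at 18 h beyond the intervals, and the higher value at 30 h was within them.

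Tdgf1 did not follow this course in its share of cells. The 6 h cells had it above 0 in 17 of 53 (32.1%, 19.9 to 46.3%), those of 18 h in 17 of 56 (30.4%, 18.8 to 44.1%), those of 24 h in 16 of 55 (29.1%, 17.6 to 42.9%) and those of 30 h in 15 of 57 (26.3%, 15.5 to 39.7%), intervals that all overlap. The median cell was at 0 TPM at each of these times and the highest had 953, 619, 249 and 353 TPM. The means were 55.8 ± 161, 46.4 ± 125, 20.6 ± 51.4 and 21.3 ± 70.3 TPM. Among the cells above 0 the median was 53.1, 122, 47.7 and 10.9 TPM, highest at 18 h and lowest at 30 h. About as many cells had Tdgf1 at 30 h as at 6 h within these intervals. A lower share of cells beyond the intervals was thus seen in the Sod1-high set only. That set holds the contrast of 12 h with 0 h that chose the gene, so nothing is read from this difference between the sets. The Sod1-low set begins at 6 h of doxycycline, so a loss before then could not be seen in it.

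Fgf4 was near the floor of the assay throughout this set. Detection was in 11 of 53 cells at 6 h (20.8%, 10.8 to 34.1%), 5 of 56 at 18 h (8.93%, 2.96 to 19.6%), 3 of 55 at 24 h (5.45%, 1.14 to 15.1%) and 2 of 57 at 30 h (3.51%, 0.43 to 12.1%). The median cell was at 0 TPM at every time and the highest had 23.1, 11.8, 22.8 and 3.18 TPM. With means of 1.78 ± 5.03 TPM at 6 h and 0.35, 0.53 and 0.07 TPM later, it never reached the 10 TPM needed to enter a comparison. Its shares came down in order of time, with each interval overlapping the next.

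**Figure D2:**
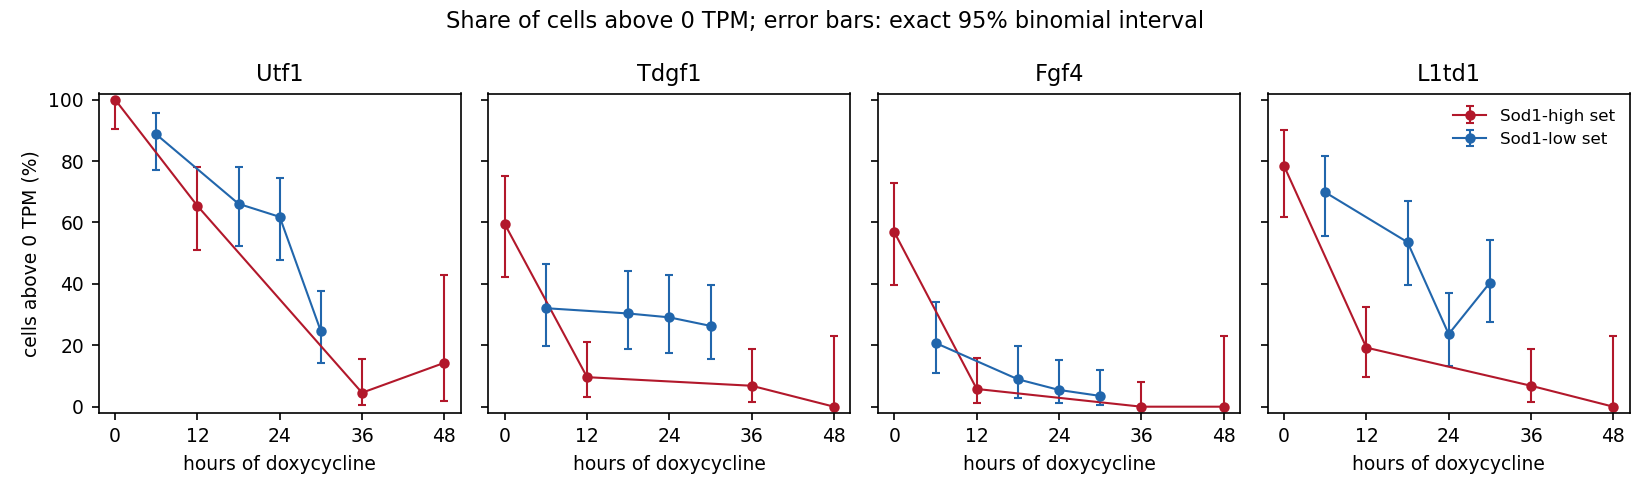
Share of kept cells above 0 TPM (vertical axis, percent) against hours of doxycycline for each gene, in the Sod1-high set (red) and the Sod1-low set (blue), with exact 95% binomial intervals that cover counting error only. Tdgf1 stays between 26.3 and 32.1% in the Sod1-low set, while Utf1 goes from 88.7% at 6 h to 24.6% at 30 h.

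On the fold scale the Sod1-low set gave, for 18 h against 6 h, a log2 fold change of -1.36 for Utf1, -1.08 for L1td1 and -0.26 for Tdgf1, with 7.36% of 6083 genes at least 2-fold lower. For 24 h the values were -2.29 for L1td1, -1.72 for Utf1 and -1.39 for Tdgf1, against 6.28% of 6305 genes. For 30 h they were -2.97 for Utf1, -1.73 for L1td1 and -1.35 for Tdgf1, against 6.03% of 6317 genes, and Utf1 ranked 28th, L1td1 143rd and Tdgf1 233rd from the lowest. The median of all genes compared was 0.07, 0.24 and 0.20 in these 3 comparisons, which share the 6 h cells. Fgf4 passed in none of them, so counts over the passing members say little about the 4 genes as a set. From 24 to 30 h Utf1 had a further -1.24, while L1td1 had 0.57 and Tdgf1 0.05. The order of the genes differed between the sets: Fgf4 and Tdgf1 had the largest folds at 12 h against 0 h, and Utf1 the largest at 30 h against 6 h. That difference between sets was not tested, and with means of log2 values Utf1 had the largest value at 12 h as well. With all 96 cells per time point in place of the deeper ones, the value of Utf1 was 1.15 at 18 h and 0.58 at 24 h against 6 h, a change of sign. In cells with at least 1000 genes it was -0.57 and -0.64, short of 2-fold. It was -2.09 or lower at 30 h under every alternative tried. Tdgf1 had -0.72 at 30 h as a mean of log2 values, short of 2-fold, and in the few cells with 2000 to 4000 genes (4 at each time) Tdgf1 had 0.62 and L1td1 1.25.

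Within single cells the 4 genes were counted together. At 0 h a cell had on average 2.95 of the 4 above 0, 24 of 37 cells (64.9%) had 3 or 4 of them, and 0 cells had none. At 12 h the average was 1.00, 4 of 52 cells (7.69%) had 3 or 4, 17 (32.7%) had none, and in 22 cells Utf1 was the only one above 0. At 36 and 48 h 81.8% and 85.7% of cells had none. In the Sod1-low set the average went from 2.11 at 6 h to 1.59, 1.20 and 0.95 at 18, 24 and 30 h. Cells with 3 or 4 of the genes made up 37.7, 25.0, 14.5 and 7.02% at these times, and cells with none 7.55, 21.4, 29.1 and 38.6%. The cells with exactly 1 gene changed in kind: Utf1 was that gene in 10 cells of the 6 h sample and 15 of the 24 h sample, whereas at 30 h it was L1td1 in 9, Tdgf1 in 6, Utf1 in 5 and Fgf4 in 1.

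**Figure D3:**
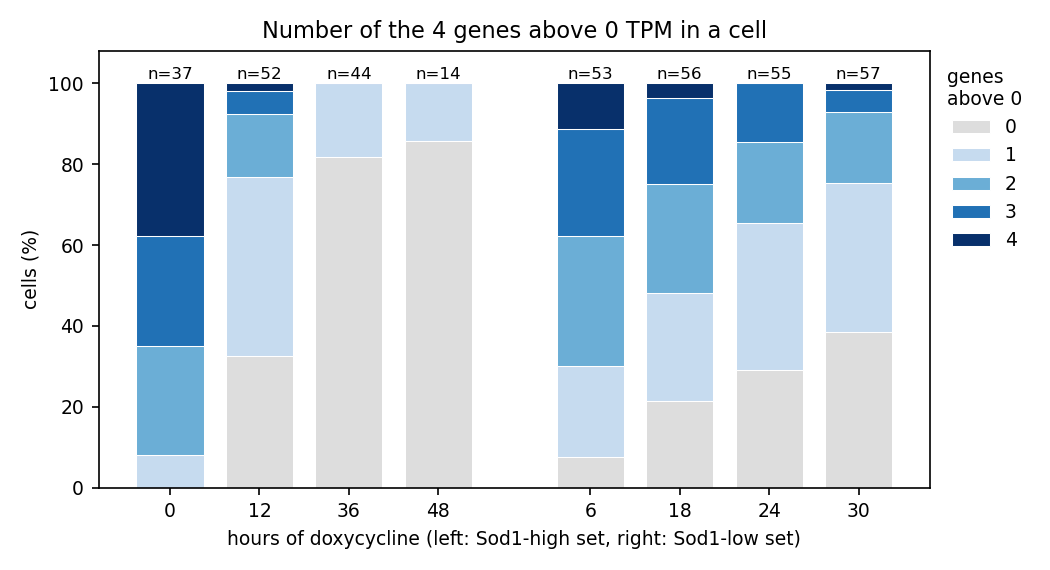
Share of kept cells (vertical axis, percent) with 0, 1, 2, 3 or 4 of the 4 genes above 0 TPM, by hours of doxycycline, with the Sod1-high set on the left and the Sod1-low set on the right and the number of cells above each bar. Cells with 3 or 4 of the genes go from 64.9% at 0 h to 7.69% at 12 h, and from 37.7% at 6 h to 7.02% at 30 h.

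How the genes went together over the cells of a time point was described by rank correlation. The share of positive values among other gene pairs was not computed, so the counts below have no background to be read against. Spearman's rho over cells between pairs of the 4, given where at least 5 cells were above 0 for each gene, was positive in 26 of 27 values, with a median of 0.27 and a range of -0.09 to 0.50. The highest was between Tdgf1 and L1td1 at 18 h (n = 56 cells), and the negative one was between Utf1 and Tdgf1 at 0 h (n = 37). With Pou5f1, the central pluripotency factor, 20 of 21 values were positive with a median of 0.36, and L1td1 had 0.28 to 0.57 in its 6 time points. With the induced factor Lhx3, 14 of 17 values were negative, between -0.36 and 0.10, all 5 values of Tdgf1 and all 5 of L1td1 among them. With Stmn2, a microtubule regulator of young neurons, 9 were positive and 12 negative. The cells of a time point share a library set and differ in depth: rho with the number of genes above 0 was positive in 15 of 21 values, from -0.16 to 0.51, with the highest for Fgf4 and then L1td1 (0.42), both at 0 h.

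Other core pluripotency genes did not all take the same course. Of a list of 21, 12 entered the comparison of 12 h with 0 h, 4 were at least 2-fold lower and 0 higher, and the median log2 fold change was -0.84 against 0.04 over all genes compared. Over all genes compared, 13.0% of 5848 were lower and 17.0% higher at 12 h. Between 6 and 30 h 6.03% of 6317 were lower and 13.9% higher. The lower ones of the list at 12 h included Tdh, the threonine dehydrogenase of embryonic stem cells (128 to 7.82 TPM, -3.87), and Sox2, the partner of Pou5f1 (36.8 to 6.76 TPM, -2.28). The others were the Nodal-related ligand Gdf3 (-1.26) and the chromatin factor Dppa2 (-1.10). Pou5f1 itself had 0.09, with 30.0 and 31.9 TPM, and the zinc finger factor Sall4 had 0.05. The like means of Pou5f1 hide fewer cells above 0 at 12 h, 26.9% (15.6 to 41.0%) against 45.9% (29.5 to 63.1%) at 0 h, intervals that overlap. Its median cell was at 0 TPM at both times, and its highest cell held 28.6% of the summed level at 0 h and 30.2% at 12 h. Between 6 and 30 h 7 of 12 were at least 2-fold lower and 0 higher, with a median of -1.23 against 0.20. They were led by Dppa2 (107 to 8.14 TPM, -3.56), Tdh (100 to 12.4 TPM, -2.93), Pou5f1 (307 to 53.4 TPM, -2.50) and Gdf3 (62.8 to 11.5 TPM, -2.35). Sall4 again had 0.03. In the shallow cells with 2000 to 4000 genes Gdf3 had 1.58 at 12 h and 0.14 at 30 h, so its direction holds for the deeper cells.

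Fgf4 is the ligand of a pathway whose other parts were followed with it. Of 10 other FGF ligands none entered the comparison at 12 h, and at 30 h against 6 h Fgf15 was higher (6.45 to 17.9 TPM, log2 1.34) and Fgf5, the FGF of the primed epiblast, had 31.1 and 56.1 TPM (0.83). Among 15 matched receptor and relay genes, such as Fgfr1, Fgfr2, Map2k1 and Mapk3, 12 were compared at 12 h, 0 were 2-fold lower or higher and the median was 0.04. Over all genes compared at 12 h, 13.0% were lower and 17.0% higher. At 30 h 1 of 7, the phosphatase Ptpn11, was higher (3.39 to 11.6 TPM, 1.52), a share near the 13.9% over all genes. Of these 7, 0 were lower, beside 6.03% of all genes compared. Ptpn11 and Fgf15, under 10 TPM at 6 h, could enter only by being higher at 30 h. Of 13 ERK-responsive targets and feedback inhibitors 8 were compared at 12 h, with a median of -0.94. Among the 8, 0 were higher and, beside 13.0% of all genes compared, 4 were at least 2-fold lower. These were the Ras pathway inhibitor Spred2 (23.5 to 2.25 TPM, -2.91), the ERK phosphatase Dusp6 (163 to 45.4 TPM, -1.82), the ETS factor Etv5 (321 to 124 TPM, -1.36) and Spred1 (14.5 to 6.38 TPM, -1.07), while Spry2 had 870 and 727 TPM. Of these Dusp6 was 0.66 in all cells and Spred1 3.25 in the cells with 2000 to 4000 genes, where Fgf15 had -1.14 at 30 h. Spred2 and Spred1, under 10 TPM at 12 h, could enter only by being higher at 0 h. At 30 h against 6 h 2 of the 6 targets and inhibitors compared were lower, beside 6.03% of all genes compared. They were Myc (15.9 to 5.44 TPM, -1.40) and Etv5 (25.9 to 10.6 TPM, -1.21). The immediate early gene Egr1 was higher (11.5 to 42.8 TPM, 1.80), and Dusp6 had 92.3 and 82.6 TPM. Fgf4 was near 0 at 6 and 30 h, and a link of these genes to it was not tested at any time.

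For Tdgf1 the genes around Nodal were counted. Of 6 matched ligands, co-receptors and processing enzymes 2 were compared at 12 h: Gdf3, lower, and Furin, the protease that matures Nodal (4.35 to 14.3 TPM, 1.51). From 6 to 30 h Gdf3 was lower and Nodal had 17.4 and 28.7 TPM (0.69). Of 8 receptors and relay genes 2 were compared at 12 h, where Acvr2b, a type II receptor, was higher (6.35 to 21.7 TPM, 1.63). Furin and Acvr2b, under 10 TPM at 0 h, could enter only by being higher at 12 h. At 30 h 4 receptors and relay genes were compared, of which 0 were 2-fold lower or higher, beside 6.03% and 13.9% of all genes compared. Of 5 targets and inhibitors 3 were compared at 12 h, with 1 higher and 0 lower (median 0.08), beside 17.0% and 13.0% of all genes compared. Against 0 h, 2 of 2 were lower at 36 h and 3 of 3 at 48 h (median -4.74 at 48 h). Over all genes compared, 28.5% were lower at 36 h and 43.4% at 48 h (median -0.62 at 48 h). Lefty1, a secreted Nodal inhibitor, was higher at 12 h (69.2 ± 234 to 244 ± 568 TPM, 1.80), although found in 29.7 and 25.0% of cells. In the comparison of 30 h with 6 h 2 of the 3 compared were higher and 0 lower, with a median of 1.37. Over all genes compared, 13.9% were higher and 6.03% lower. The higher ones were Lefty2, another secreted inhibitor (7.35 to 21.5 TPM, 1.43), and Lefty1 (52.9 to 138 TPM, 1.37). The mesoderm factor T was higher in the same cells' comparison (0.31 to 49.3 TPM, 5.26), its part in these values was not tested, and it was -0.12 when all cells were used. Lefty2 and T, under 10 TPM at 6 h, could enter only by being higher at 30 h.

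Among 13 genes of PRC2 and other Utf1 partners or targets, 11 were compared at 12 h, with a median of -0.64. Of these, 0 were higher and, beside 13.0% of all genes compared, 3 were at least 2-fold lower. They were Mycn, a Myc family factor (202 to 32.8 TPM, -2.59), the PRC2 enzyme Ezh1 (15.2 to 2.11 TPM, -2.38) and the PRC2 subunit Eed (125 to 31.9 TPM, -1.93), while the main PRC2 enzyme Ezh2 had 172 and 142 TPM. At 30 h against 6 h 0 of 7 were lower, beside 6.03% of all genes compared. A link of this list to the level of Utf1 was not tested. Dcp1a was higher (4.99 to 11.7 TPM, 1.09), 1 of 7, a share near the 13.9% over all genes. Eed then had 51.3 and 39.6 TPM. In cells with 2000 to 4000 genes Ezh1 had 0.31 at 12 h and Dcp1a -1.93 at 30 h. Of 9 genes of RNA regulation around L1td1 and Lin28, 8 were compared at each time. At 12 h 1 of 8 was lower, a share near the 13.0% over all genes. It was Igf2bp2, an mRNA-binding protein (12.7 to 3.46 TPM, -1.62), whose value was 0.11 in all cells. Lin28a had 58.3 and 99.8 TPM (0.77) while its partner L1td1 was lower. At 30 h against 6 h 0 of 8 were lower and 2 higher, beside 6.03% and 13.9% of all genes compared. The higher ones were the exonuclease Dis3l2 (1.50) and the uridylyltransferase Zcchc6 (1.05), Zcchc6 with -0.36 in all cells. With 5.21 and 5.29 TPM at 6 h, both could enter only by being higher at 30 h.

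Neuronal genes were higher at the same times. Of 11 pan-neuronal genes 5 of 5 compared were at least 2-fold higher at 12 h, and 7 of 8 at 30 h against 6 h, beside 17.0% and 13.9% of all genes compared. These counts are largely set by the filter, as genes under 10 TPM at first could enter only by being higher later. At 0 h such genes were Ebf2, Elavl3 and Gap43 (2.95, 2.87 and 9.16 TPM). At 6 h they were Stmn2, Nefl, Elavl3, Nefm, Ebf2 and Map2 (1.16 to 9.57 TPM). Elavl3, a neuronal RNA-binding protein, had -0.25 at 12 h in cells with 2000 to 4000 genes and -1.51 at 30 h in all cells, where the neurofilament gene Nefm had -0.057. Their summed mean was 62.5, 648, 2439 and 3750 TPM at 0, 12, 36 and 48 h, and 240, 300, 674 and 678 TPM at 6, 18, 24 and 30 h.

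**Figure D4:**
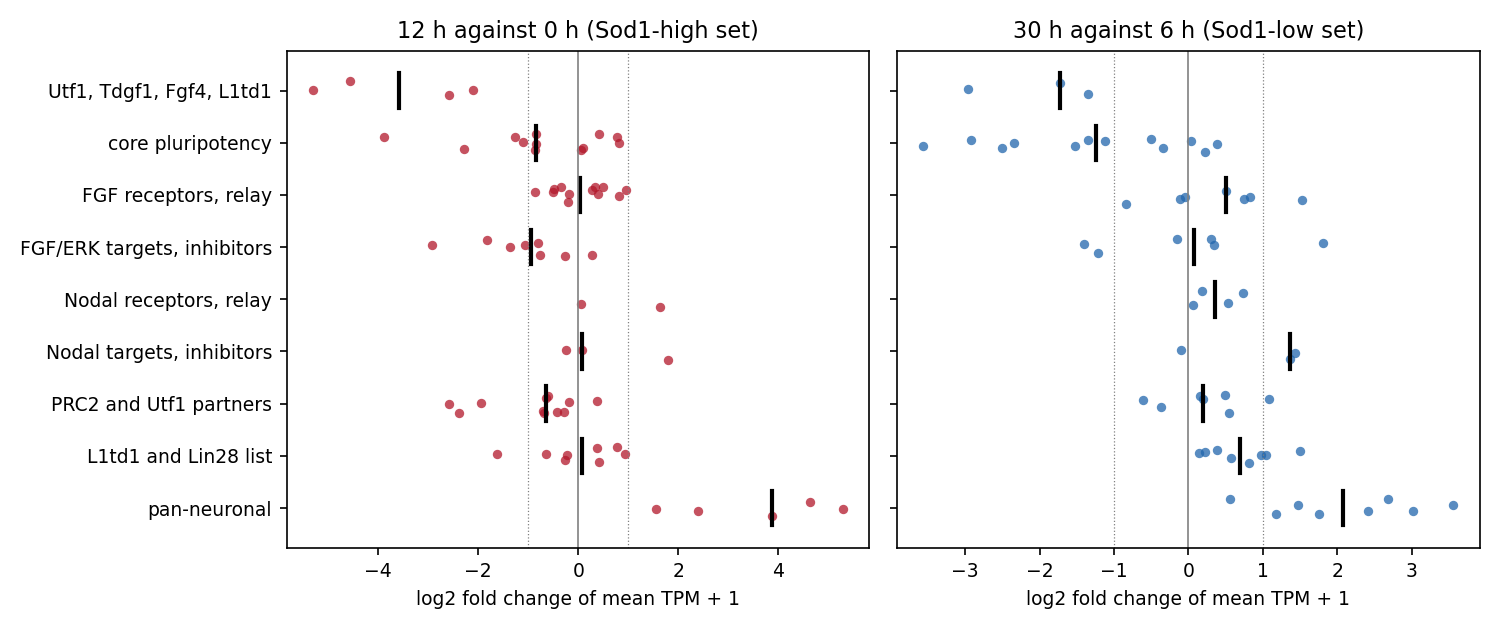
Log2 fold change of mean TPM + 1 (horizontal axis) for the genes of each list that entered the comparison, at 12 h against 0 h (left, Sod1-high set) and 30 h against 6 h (right, Sod1-low set); points are genes, black bars are medians of lists with at least 3 genes, and dotted lines mark 2-fold. At 12 h the 4 genes lie between -5.30 and -2.10, where they were chosen to be low. At 30 h the 3 of them that entered lie between -2.97 and -1.35 (Fgf4 did not enter). The Nodal targets have a median of 1.37 at 30 h over 3 genes, of which Lefty2 could enter only by being higher then.

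For each of the 4 genes the 3 genes of most alike course were sought among 5726, by Pearson's r over the 8 time points of log2(mean TPM + 1) after subtracting the mean of the library set. The 8 points share their libraries and include the 0 and 12 h values that chose the genes, so r is a description. Closest to Utf1 was Etv5 (r = 0.99), with 321, 124, 21.0 and 24.2 TPM at 0, 12, 36 and 48 h and 25.9, 16.8, 18.0 and 10.6 TPM at 6, 18, 24 and 30 h, followed by the ribosome assembly factor Utp20 and the cytochrome gene Cyb5. Closest to L1td1 were Zfp600 (0.99), Ppil5 and the cell surface proteoglycan Sdc4, which had 3628, 535 and 78.7 TPM at 0, 12 and 36 h. Tdgf1 was nearest to the complement regulator Cd59b (0.98), the thioredoxin reductase Txnrd1 and Ppp2r2d. Fgf4, itself below 10 TPM in the Sod1-low set, was nearest to Plac9 (0.99), Txnrd1 and Wrap53. Among the 4 genes r ran from 0.82 between Utf1 and Tdgf1 to 0.96 between Utf1 and L1td1.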

How the data were processed

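Single mouse cells were profiled at 8 time points with 96 cells each, by SMART-Seq2 without molecular tags and single-end reads of 50 bp, per the labels' protocols. The authors deposited 1 table of TPM values per gene and cell, whose columns sum to 1000000 within rounding. The depth behind a TPM value is unknown, and the number of genes above 0 stood in for depth. A few abundant transcripts lower all other TPM values of a cell. The submitters' processing notes name mm10, bcl2fastq and Picard (aligner and annotation not given in the sources used here). Libraries were made in 2 batches per the labels' protocols, which cells were in which is not given there, and the 2 library sets are a reading of Sod1 levels, not of those batches. No cell's full column equalled another's.

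The analysis kept the 368 cells in which 2000 or more genes were above 0 and left out 400. The time points came from the labels. Computed were means, SDs between cells, shares above 0 with exact 95% intervals (a share of 0 has 3 divided by the cell number as its limit, for counting error only), log2 ratios of (mean + 1 TPM), and Spearman's rho over cells. Calls were at least 2-fold, among genes averaging 10 TPM or more and above 0 in 25% or more of cells in the higher time point. With 1 sample per time point no test was made. The 4 genes and all lists were chosen with earlier results of these data known. Named genes were the 4, up to 4 of each list with the largest absolute log2 fold change in the comparisons 12 h against 0 h and 30 h against 6 h, the 3 most alike in course, the induced factors and Sod1, Gapdh, Actb and Hprt; other genes named from the lists were chosen after their values were seen. Of the list symbols 131 matched the table directly, 6 by a RefSeq synonym and 2 not at all. The result of 1 listed gene is not reported here, and its list is counted without it. The fold and filter steps were tested on simulated data. Alternatives were pseudocounts of 0.1 and 10 TPM, rescaling to a median log2 ratio of 0, TPM without Sod1 and the 50 highest genes, the median, the mean of log2 values, leaving out the highest cell, no filter, other limits on genes per cell, and detection at 10 TPM or within a cell's 1000 highest genes. The software was Python 3.11.15 with matplotlib 3.10.9, scipy 1.17.1, pandas 2.3.3 and numpy 2.4.6.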

Additional observations from a re-analysis of the deposited data

How the results depend on the processing

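At 12 h against 0 h each of the 4 genes was at least 2-fold lower under all 11 alternatives, between -5.91 and -2.00 for Fgf4, -5.30 and -3.11 for Tdgf1, -5.55 and -2.05 for L1td1 and -5.24 and -1.002 for Utf1. That contrast chose the genes, and the alternatives use the same data, so this is a description only. Utf1 at 30 h against 6 h, a comparison not used to choose it, was also at least 2-fold lower under all 11 (-5.75 to -2.09). Over 212 alternative folds of the 4 genes, 180 stayed on the same side of 2-fold with no change of sign, 18 no longer passed it, 5 newly passed it and 9 changed sign, and among all 212, 7 were exactly 0, 6 of them medians over cells. The sign changes were, in all cells, Utf1 1.15 and Fgf4 1.46 at 18 h and Utf1 0.58 at 24 h against 6 h; in cells with at least 1000 genes, Fgf4 1.40 at 18 h; and in cells with 2000 to 4000 genes (4 at 6 h, 7 at 18 h, 4 at 30 h), Fgf4 0.37, Tdgf1 2.10 and L1td1 3.02 at 18 h and Tdgf1 0.62 and L1td1 1.25 at 30 h. The number of the 4 genes that passed the filter and were at least 2-fold lower at 18 h against 6 h was 1 in place of 2 with a pseudocount of 10 TPM, in all cells, in cells with at least 1000 genes and in cells with 2000 to 4000 genes. It was 1 in place of 3 at 24 h against 6 h in all cells and in cells with at least 1000 genes, 1 in place of 3 at 30 h against 6 h in cells with 2000 to 4000 genes, and 2 in place of 4 at 36 h against 0 h in all cells. It was 3 in place of 4 at 12 and 48 h against 0 h in all cells and at 12, 36 and 48 h in cells with 2000 to 4000 genes, and 2 in place of 3 at 24 and 30 h against 6 h with the median or the mean of log2 values and at 30 h in all cells. Without the filter it was 3 at 18 h and 4 at 30 h against 6 h. Of 748 values of other named genes 39 changed sign, 21 of them from or to a change of at least 2-fold. In all cells the latter were Dusp6 0.66 and Igf2bp2 0.11 at 12 h against 0 h, and Col1a2 -1.45, Elavl3 -1.51, Ezh2 -1.25, Nefm -0.057, T -0.12 and Zcchc6 -0.36 at 30 h against 6 h. In cells with 2000 to 4000 genes they were Elavl3 -0.25, Ezh1 0.31, Gdf3 1.58, Igf2bp2 1.59, Smad4 -1.34, Spred1 3.25 and Zcchc6 2.60 at 12 h, and Dcp1a -1.93, Fgf15 -1.14, Gdf3 0.14, Lin28b -1.68 and Smad4 -1.70 at 30 h. With medians Map2k2 had -1.30 at 12 h. The cause was not tested. Shares of cells in cells with at least 4000 genes lay within the reported intervals in 24 of 24 values, with detection at 10 TPM in 23 of 32, in all cells in 21 of 32, in cells with 2000 to 4000 genes in 16 of 28, and with detection among a cell's 1000 highest genes in 7 of 32. The comparison of 24 h with 6 h in cells with 2000 to 4000 genes was not run, with 2 cells at 24 h, and 0 cells at 36 and 48 h had 4000 genes. No paired analysis was possible because each time point is 1 sample and cell numbers pair nothing.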
